A study of Mus musculus with 3 samples.

Results

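The genes described here are 38 interferon-stimulated genes, listed by name and grouped by the known role of their products. Peaks of the 3 deposited lists that shared at least 1 bp were merged into 57457 regions. A region belonged to a gene of the set when that gene was the nearest RefSeq protein-coding gene within 100 kb. This gave 98 regions for 35 of the 38 genes. Of these, 38 lay near a gene end, meaning within 1 kb of the first or last base of an annotated gene, out of 13157 such regions in all. The other 60 lay elsewhere, out of 44300. Ifi44 had no region in any list. Mx1 and Mx2 are transcribed pseudogenes in the annotation of this mouse strain and fall outside the rule for protein-coding genes, so their regions are given separately.

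Open chromatin was mapped by ATAC-seq, which uses a transposase to cut and tag accessible DNA, in CD4+ T cells from mesenteric lymph nodes draining the colon. Naive spleen CD4+ cells of CBir1 transgenic mice, whose T cell receptor recognises a bacterial flagellin, were stained with the dye CellTrace Violet and given to 4 wild-type C57BL/6J mice. All recipients then had 2% dextran sulfate sodium (DSS), which injures the colon lining, in their water for 7 days, and FTY720, a drug that stops lymphocytes from leaving lymph nodes, on days 7, 10 and 13 (1 mg/kg). On day 14 the cells were sorted into divided CBir1 cells (dye diluted, CTVdim), undivided CBir1 cells (dye retained, CTVhi) and the recipients' own polyclonal CD4+ cells without the CBir1 receptor. Matching fractions of 2 mice were pooled, and pools were made in duplicate, but each fraction has 1 peak list here. The sources used here do not state the age of the mice. Each fraction is 1 library, so differences could not be checked against replicates and no test between fractions was made. No library from mice without DSS or FTY720 was analysed here.

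Type I interferons signal through a receptor with the kinases JAK1 and TYK2 to a transcription factor complex that contains IRF9 and binds the interferon-stimulated response element (ISRE) in promoters. Interferon gamma, a product of activated T cells and natural killer cells, signals through JAK1 and JAK2 and acts on promoters with the gamma-activated site (GAS). The induced genes encode proteins that sense foreign nucleic acid, block viral replication or attack vacuoles that hold microbes, and many are also present at a low level in resting lymphocytes.

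The promoters of the set were first read for these elements. RefSeq promoter windows (GRCm38.p6, the assembly of mm10) run from 250 bases before to 50 bases after an annotated start, and 28 of the 38 genes had one. The ISRE core was searched as GAAA, any 2 bases and GAAA again, and the GAS as TTCNNNGAA, both on either strand. An ISRE core was present in the windows of 18 of the 28 genes (64.3%, Wilson 95% interval 45.8 to 79.3), against 3.99% of the 27025 genes of the table. Among genes whose window lay in a called region the shares were 69.2% and 3.21%. A GAS was present for 10 of the 28 genes (35.7%), against 9.55% of all genes. A match describes letters in the window and does not show binding. The 10 genes without a window were Mx1, Mx2, Dhx58, Oas2, Parp9, Parp14, Usp18, Iigp1, Rtp4 and Zbp1.

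One promoter window is shown for each role group, namely the one with an ISRE core whose region had the highest summit pileup in the divided library. Each is written 5′ to 3′ on the strand of the gene, from RefSeq, with the ISRE cores in capitals. The windows lie at Ifit1 chr19:34640639-34640938, + strand, Oas3 chr5:120777610-120777909, - strand, Ifih1 chr2:62646206-62646505, - strand, Gbp3 chr3:142559794-142560093, + strand, Trim21 chr7:102565433-102565732, - strand and Bst2 chr8:71537423-71537722, - strand.
Ifit1: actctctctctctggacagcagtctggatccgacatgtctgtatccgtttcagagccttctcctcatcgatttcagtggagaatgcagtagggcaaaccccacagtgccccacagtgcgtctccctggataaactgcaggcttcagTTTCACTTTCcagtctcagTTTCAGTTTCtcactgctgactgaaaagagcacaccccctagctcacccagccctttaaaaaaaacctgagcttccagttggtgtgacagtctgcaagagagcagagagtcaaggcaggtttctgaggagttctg
Oas3: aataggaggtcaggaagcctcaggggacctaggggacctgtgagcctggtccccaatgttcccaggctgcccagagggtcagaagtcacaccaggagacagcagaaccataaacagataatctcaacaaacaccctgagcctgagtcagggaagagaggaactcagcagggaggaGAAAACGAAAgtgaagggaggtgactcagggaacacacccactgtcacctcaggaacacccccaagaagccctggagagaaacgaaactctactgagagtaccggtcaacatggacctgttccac
Ifih1: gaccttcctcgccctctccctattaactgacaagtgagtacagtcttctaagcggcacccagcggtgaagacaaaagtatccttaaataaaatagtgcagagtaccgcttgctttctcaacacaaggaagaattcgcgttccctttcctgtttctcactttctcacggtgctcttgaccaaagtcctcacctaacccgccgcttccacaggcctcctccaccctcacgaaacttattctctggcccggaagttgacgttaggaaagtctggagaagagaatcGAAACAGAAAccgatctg
Gbp3: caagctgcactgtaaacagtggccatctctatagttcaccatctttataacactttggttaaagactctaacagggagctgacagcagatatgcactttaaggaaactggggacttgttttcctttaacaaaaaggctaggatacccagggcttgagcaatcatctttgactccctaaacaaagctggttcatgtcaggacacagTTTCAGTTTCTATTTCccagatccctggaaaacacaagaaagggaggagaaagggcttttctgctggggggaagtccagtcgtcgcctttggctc
Trim21: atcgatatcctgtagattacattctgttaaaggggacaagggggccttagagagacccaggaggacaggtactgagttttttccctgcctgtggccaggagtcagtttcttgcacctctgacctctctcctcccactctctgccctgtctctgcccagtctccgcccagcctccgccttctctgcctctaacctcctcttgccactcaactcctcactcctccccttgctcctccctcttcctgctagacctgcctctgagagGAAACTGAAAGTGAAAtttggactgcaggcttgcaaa
Bst2: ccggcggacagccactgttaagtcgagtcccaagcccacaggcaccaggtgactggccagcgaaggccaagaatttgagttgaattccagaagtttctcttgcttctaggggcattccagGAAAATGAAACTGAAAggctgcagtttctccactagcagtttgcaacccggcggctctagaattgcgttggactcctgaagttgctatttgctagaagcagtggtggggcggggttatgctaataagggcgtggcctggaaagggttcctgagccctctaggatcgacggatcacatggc

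Short stretches of 7 other promoters, chosen after their matches had been seen, show how the cores are arranged. They carry 12 flanking bases on each side, with the ISRE core in capitals and, for Igtp and Irgm2, the GAS too. They lie at Isg15 chr4:156200863-156200908, - strand, Ifit3 chr19:34583361-34583428, + strand, Rsad2 chr12:26456551-26456584, - strand, Igtp chr11:58199499-58199543, + strand, Irgm2 chr11:58214890-58214934, + strand, Gbp5 chr3:142496757-142496790, + strand and Gbp7 chr3:142530271-142530304, + strand.
Isg15: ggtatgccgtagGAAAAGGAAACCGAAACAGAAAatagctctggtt
Ifit3: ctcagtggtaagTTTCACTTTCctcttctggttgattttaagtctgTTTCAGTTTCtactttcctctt
Rsad2: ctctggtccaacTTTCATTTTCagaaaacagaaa
Igtp: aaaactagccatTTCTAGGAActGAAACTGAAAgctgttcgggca
Irgm2: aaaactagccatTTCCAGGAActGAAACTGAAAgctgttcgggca
Gbp5: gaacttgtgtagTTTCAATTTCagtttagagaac
Gbp7: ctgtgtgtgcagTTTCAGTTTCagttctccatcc

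The 18 genes held 27 ISRE cores. In 8 genes there was more than 1 core, and in 6 of these the cores overlapped. Isg15, which encodes a ubiquitin-like protein, had 3 overlapping cores with first bases at -78, -72 and -66 from the annotated start. Cores lay only before the start in 14 genes, with first bases between -165 and -14. In the other 4 (Ddx58, Eif2ak2, Ifih1 and Trim21) they lay after it. Igtp and Irgm2, which encode immunity-related GTPases, each had a GAS 2 bases before the ISRE core. Their 45-base stretches had the same base at 44 positions and differed by T16C, counted from 1 at the 5′ end with the base of Igtp first. In Bst2 a GAS shared 3 bases with an ISRE core. Both elements were found for 7 of 28 genes, against 0.614% of all genes.

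Summits at these promoters lay within 100 bp of a core in most of the windows counted. Cores were searched only near the start and distances at other promoters were not measured, so closeness to the core itself was not tested. For 15 of the 18 genes the window lay in a region called in all 3 libraries. The median distance from summit to nearest core centre was 65.5 bp for divided cells (17 windows), 48 bp for undivided cells (16 windows) and 38.5 bp for polyclonal cells (17 windows). Within 100 bp lay 11, 11 and 12 summits. At Gbp3 and Gbp5, which encode guanylate-binding proteins, all libraries had summits 569.5 to 600.5 bp and 607.5 to 747.5 bp from a core, downstream of the start. Distant summits in some libraries were also found at Ddx58 (636.5 bp in divided and 664.5 bp in undivided cells), Gbp2 (725.5 bp and 213.5 bp) and Eif2ak2 (473.5 bp in undivided cells).

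**Figure D1:**
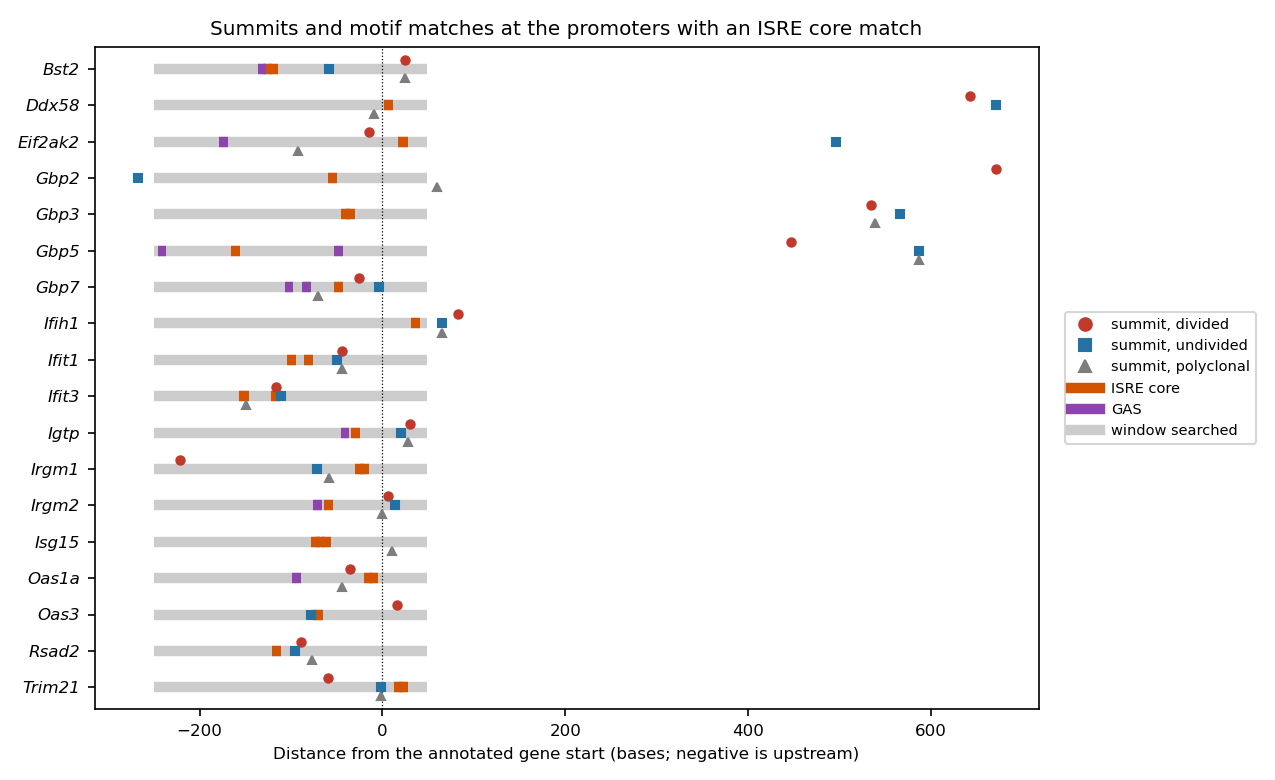
Summit positions and motif matches at the 18 promoters with an ISRE core, as distance in bases from the annotated start (x axis) for each gene (y axis). Grey bars are the windows searched, orange and purple marks are ISRE cores and GAS matches, and points are the summits of the 3 libraries, most of which lie within or beside the window.

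Most gene-end regions of the set were open in all 3 fractions, in a share close to that of gene ends in general. Of the 38 regions near gene ends, 31 were called in every library (81.6%, Wilson 95% interval 66.6 to 90.8), against 82.6% of all regions near gene ends. Elsewhere 31 of 60 were called in every library (51.7%, 39.3 to 63.8), against 49.2%. Intervals here and below cover counting error only, and reads that are copies of 1 fragment would make them too narrow. Near gene ends the divided library held 36 regions of the set, the undivided 32 and the polyclonal 35. A peak near its own gene end was present for 32 of the 36 protein-coding genes of the set in divided cells, 31 in undivided cells and 33 in polyclonal cells. Mx1 and Mx2, outside that count, each had a region at a gene end called in all 3 libraries. Over all protein-coding genes this share was 55.6%, 54.0% and 54.7%.

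**Figure D2:**
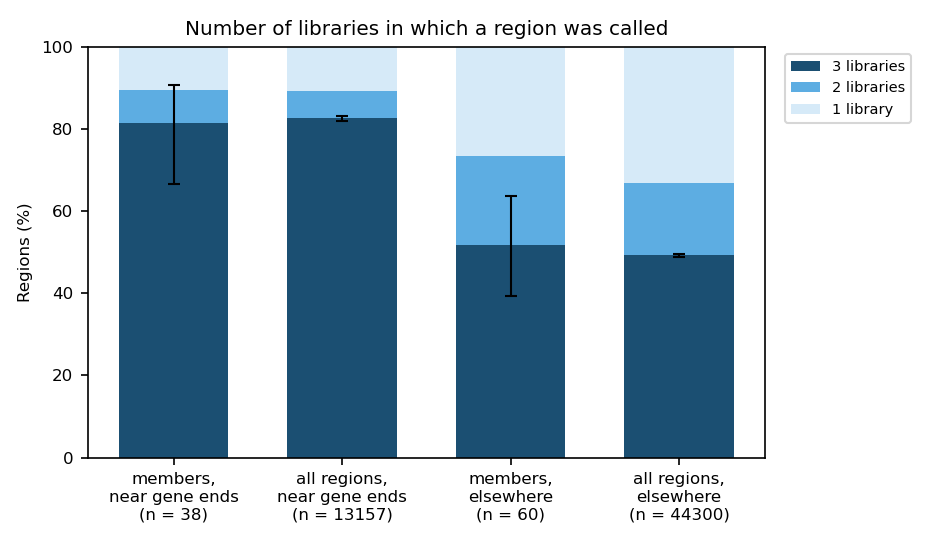
Share of regions (y axis, percent) called in 3, 2 or 1 of the libraries, for the interferon-stimulated genes and for all regions, near gene ends and elsewhere. Error bars are Wilson 95% intervals of the share called in all 3, which stood at 81.6% and 82.6% near gene ends and at 51.7% and 49.2% elsewhere.

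The height of a peak is given as its summit pileup, the number of fragments stacked at its summit, recovered from the authors' fold and −log10 p-value, which belong to each peak in its own list. The divided library was deeper, so ratios were divided by the median pileup ratio of regions called in all 3 libraries, 1.21 for divided over undivided, 1.19 for divided over polyclonal and 0.988 for undivided over polyclonal. Scaling instead by the lowest background (1.5, 1.4 and 0.933) lowers every divided over undivided ratio by 0.31 and every divided over polyclonal ratio by 0.23 on the log2 scale, and a value scaled this way is called background-scaled. Regions named for a ratio were picked as extremes of a comparison, which their counting intervals do not allow for. In bulk libraries fewer cells with an open site and less signal per cell cannot be told apart. Fragment counts in the text are not depth-scaled, so a higher divided count alone is not a higher ratio. Near gene ends the median pileup of the set was 80 fragments for divided cells, 74.5 for undivided cells and 69 for polyclonal cells, against 82, 68 and 71 over all such regions.

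**Figure D3:**
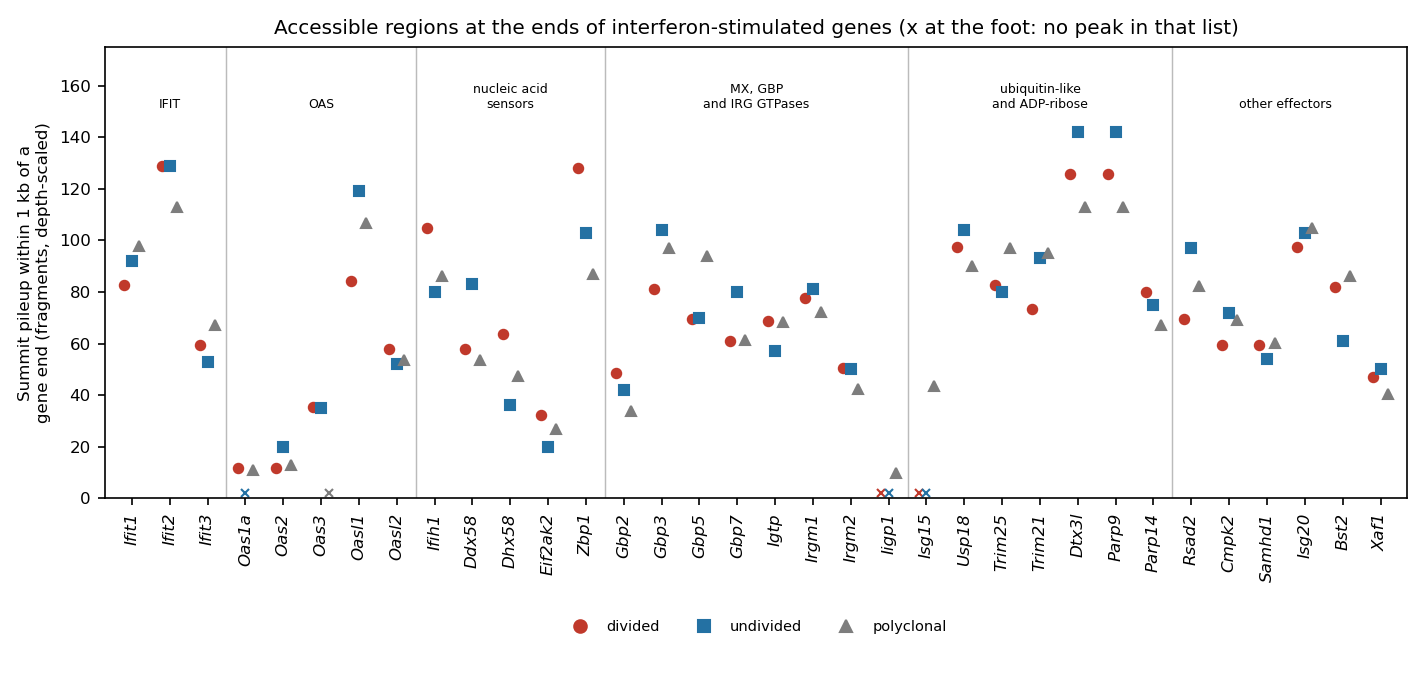
Depth-scaled summit pileup (y axis, fragments) of the region near its own gene end with the highest summed pileup, for each of the 34 interferon-stimulated genes that had one, grouped by role (x axis). Circles, squares and triangles are the divided, undivided and polyclonal libraries, crosses at the foot mark a list with no peak, and Dtx3l and Parp9 share 1 region.

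The IFIT genes encode proteins that bind viral RNA with foreign end structures and block its translation. Their promoters were open in every fraction. Ifit2 (chr19:34550350-34551304) had the highest pileups of the 3, at 156 fragments in divided cells, 129 in undivided cells and 114 in polyclonal cells. Ifit1, the promoter printed above, had 100, 92 and 99. After scaling, the divided to undivided ratio was 1.0 for Ifit2 and 0.901 for Ifit1, so neither was higher in divided cells. Ifit3 was the exception at its first annotated base (chr19:34582818-34583662), where the pileup was 40 in divided cells, 66 in undivided cells and 42 in polyclonal cells. The depth-scaled ratio of divided to undivided was 0.503 (exact 95% counting interval 0.331 to 0.756), and that of undivided to polyclonal was 1.59 (1.06 to 2.4). At the other end of Ifit3 (chr19:34587823-34588752) the order differed, with 72, 53 and 68 fragments. Inside the Ifit2 span, faint peaks of 10 to 12 fragments were called in some lists only. One had 10 in divided and 12 in polyclonal cells with no undivided peak, and another had 10 in undivided and 11 in polyclonal cells with no divided peak.

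The OAS genes encode enzymes that make oligoadenylate on double-stranded RNA and so switch on RNase L, while Oasl1 and Oasl2 encode related proteins. Signal differed widely within the family. The tallest region lay inside the Oas3 span (chr5:120775308-120776208), at 173 fragments in divided cells, 180 in undivided cells and 152 in polyclonal cells. Oasl1 had 102, 119 and 108 and Oasl2 70, 52 and 54 at their gene ends. Oas1a and Oas2 were weak at theirs. Oas2 (chr5:120749370-120750257) had 14, 20 and 13 fragments, and Oas1a (chr5:120907167-120907816) had 14 in divided and 11 in polyclonal cells with no undivided peak. The Oas3 promoter, printed above, lay under a peak called in both CBir1 fractions, at 43 fragments in divided and 35 in undivided cells, and not in the polyclonal list (chr5:120777496-120777777). The call was weak, over a local background of 15.8 and 13.2 fragments, with −log10 q-values of 6.16 and 4.53. Absence from the polyclonal list gives no signal value there. Inside Oas2, a peak of 16 fragments in divided and 11 in undivided cells was likewise without a polyclonal peak. A region 4389 bp from Oasl2 (chr5:114891266-114892537) was lowest in divided cells, with 24 fragments against 46 in undivided and 42 in polyclonal cells. Its divided to undivided ratio was 0.433 (0.253 to 0.724) and its divided to polyclonal ratio 0.48 (0.278 to 0.812).

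Genes for nucleic acid sensors were the group in which divided cells were most often higher. Of the 9 sensor regions called in both CBir1 fractions, 8 had a depth-scaled divided to undivided ratio above 1, with a median log2 ratio of 0.40, and over all regions 50.4% were above 1. With background scaling 6 of 9 were above, beside 24.6% of all regions, and the median was 0.09. Against polyclonal cells 7 of 9 were above, beside 51.9%, with a median of 0.28. With background scaling 5 of 9 were above, beside 29.9%, with a median of 0.05. The size of this difference therefore depended on the scaling, and the sensors were singled out after the values of the 6 groups had been seen. In the other groups the depth-scaled divided to undivided median lay between -0.15 (OAS) and 0.09 (MX, GBP and IRG). With background scaling 0 of 8 OAS regions and 0 of 4 IFIT regions were above 1, beside the same 24.6%.

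Among the sensors, Ifih1 encodes MDA5, which detects long double-stranded RNA. Its promoter had 127 fragments in divided cells, 80 in undivided cells and 87 in polyclonal cells (chr2:62645499-62646655). Zbp1 encodes a sensor of left-handed nucleic acid that can start necroptosis, and had 155, 103 and 88 at its gene end (chr2:173218458-173219903). The Zbp1 ratio of divided to polyclonal was 1.48 (1.13 to 1.95), or 1.26 background-scaled. Dhx58 encodes LGP2, a regulator of RIG-I and MDA5, and had 77, 36 and 48 fragments at chr11:100702594-100704494, a divided to undivided ratio of 1.77 (1.18 to 2.71), or 1.43 background-scaled. At the other end of Dhx58 (chr11:100695075-100695343) a peak of 21 fragments was called in divided cells only. Eif2ak2, which encodes the RNA-activated kinase PKR, had 39, 20 and 27. Its summits lay at -15, 496 and -92 bases from the annotated start, so its ratios compare different points of the region. At these 4 gene ends divided cells were highest with either scaling. The background-scaled divided to undivided ratio was only 1.01 at Zbp1 and 1.06 at Ifih1. Against polyclonal cells it was only 1.05 at Ifih1 and 1.03 at Eif2ak2. Depth-scaled divided to undivided intervals included 1 at Ifih1 (0.987 to 1.76), Zbp1 (0.966 to 1.62) and Eif2ak2 (0.921 to 2.93). Those against polyclonal cells included 1 at Ifih1 (0.927 to 1.63), Dhx58 (0.928 to 1.98) and Eif2ak2 (0.725 to 2.06). The Dhx58 region with 77 fragments also covers an end of the neighbouring gene Kat2a.

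Ddx58, which encodes the sensor RIG-I, went the other way at its gene end and was highest in undivided cells. The pileups were 70 in divided cells, 83 in undivided cells and 54 in polyclonal cells (chr4:40238749-40240437), with an undivided to polyclonal ratio of 1.56 (1.09 to 2.23). The summits were not at the same place, 643 and 671 bp downstream of the start in the CBir1 fractions and 9 bp upstream in polyclonal cells. Inside Ddx58 (chr4:40236761-40237097) a peak of 36 fragments was called in divided cells and in neither other list. The background at this peak was 8.76 fragments. Inside Ifih1 a peak had 18 fragments in divided and 12 in polyclonal cells and none was called in undivided cells. Near Zbp1 a peak had 12 in divided and 7 in undivided cells and none was called in polyclonal cells.

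The dynamin-like MX proteins trap viral components, the guanylate-binding proteins (GBP) coat vacuoles and bacteria, and the immunity-related GTPases (IRG) act on vacuoles that hold parasites. The Mx1 region stood out most, and was described after its values had been seen, since the rule assigned it to Fam3b, 7506 bp away. It covered one end of the Mx1 span (chr16:97462505-97463459). The pileup was 70 fragments in divided cells, 10 in undivided cells and 38 in polyclonal cells. The divided to undivided ratio was 5.8 (2.98 to 12.6), or 4.68 background-scaled, and only 39 regions (0.112% of those called in both) had a ratio as high. The undivided to polyclonal ratio was 0.266 (0.118 to 0.545), as low as in 21 regions (0.0601%). The divided to polyclonal ratio was 1.55 (1.03 to 2.36), which 10.5% of regions reached. The local background varied as well, at 5.88, 0.966 and 3.09 fragments, and its part in the result was not tested. Mx2 (chr16:97534781-97536402) had 78, 46 and 45 fragments, with a divided to undivided ratio of 1.41 (0.965 to 2.07).

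The GBP genes of the set (Gbp2, Gbp3, Gbp5 and Gbp7) lie in a cluster on chromosome 3, and their promoters were open in all fractions. Gbp3 had 98, 104 and 98 fragments in divided, undivided and polyclonal cells, Gbp5 84, 70 and 95, Gbp7 74, 80 and 62, and Gbp2 59, 42 and 34. Depth-scaled divided to undivided ratios were 0.781 at Gbp3, 0.995 at Gbp5 and 0.767 at Gbp7. At Gbp2 the divided to polyclonal ratio was 1.46 (0.941 to 2.29), while the divided to undivided ratio was 1.16 and turned to 0.939 when background-scaled. The Gbp2 summits lay at 671, -268 and 60 bases from the annotated start in divided, undivided and polyclonal cells. These ratios therefore compare different points of the region. A second Gbp2 region 2014 bp beyond the gene (chr3:142640022-142640576) had 38, 14 and 16 fragments. Its divided to undivided ratio of 2.25 (1.19 to 4.5) was the highest among the regions of the set, and its divided to polyclonal ratio was 2.0 (1.09 to 3.84). Background scaling gave 1.81 and 1.7. A region 6041 bp from Gbp5 (chr3:142490429-142490893) had 53, 26 and 30 fragments, with a divided to polyclonal ratio of 1.49 (0.932 to 2.41). Near the last base of Gbp7 a faint peak had 15 fragments in divided and 10 in polyclonal cells and was not called in undivided cells. Inside Gbp7 another had 11 in divided and 13 in undivided cells and was not called in polyclonal cells.

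The IRG genes differed among themselves. Irgm1, a regulatory member of the family, had 94, 81 and 73 fragments at its promoter in divided, undivided and polyclonal cells, Igtp had 83, 57 and 69, and Irgm2 had 61, 50 and 43. Their depth-scaled divided to undivided ratios were 0.962, 1.21 and 1.01. Iigp1, an effector of the family, was instead highest in polyclonal cells. Inside its span (chr18:60375617-60376251) the pileup was 18 in divided cells, 14 in undivided cells and 41 in polyclonal cells. The divided to polyclonal ratio was 0.369 (0.2 to 0.657) and the undivided to polyclonal ratio 0.345 (0.174 to 0.647). A second region inside Iigp1 (chr18:60382309-60382716) had 10, 6 and 16 fragments, and the only peak at its gene end was a polyclonal one of 10. A peak of 23 fragments between Igtp and Irgm2, and a peak of 19 lying 7810 bp beyond Irgm2 on its far side, were called in polyclonal cells only. A neighbouring region near Igtp (chr11:58210983-58211341) had 36 in divided and 27 in polyclonal cells and no undivided peak. Other regions near Irgm2 had 36, 31 and 48 fragments, an undivided to polyclonal ratio of 0.653 (0.402 to 1.05), and 20, 23 and 16, a ratio of 1.45 (0.736 to 2.95). Igtp and Irgm2 are near copies in the promoter stretches shown, and the sources used here do not state how reads that match several places were handled.

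**Figure D4:**
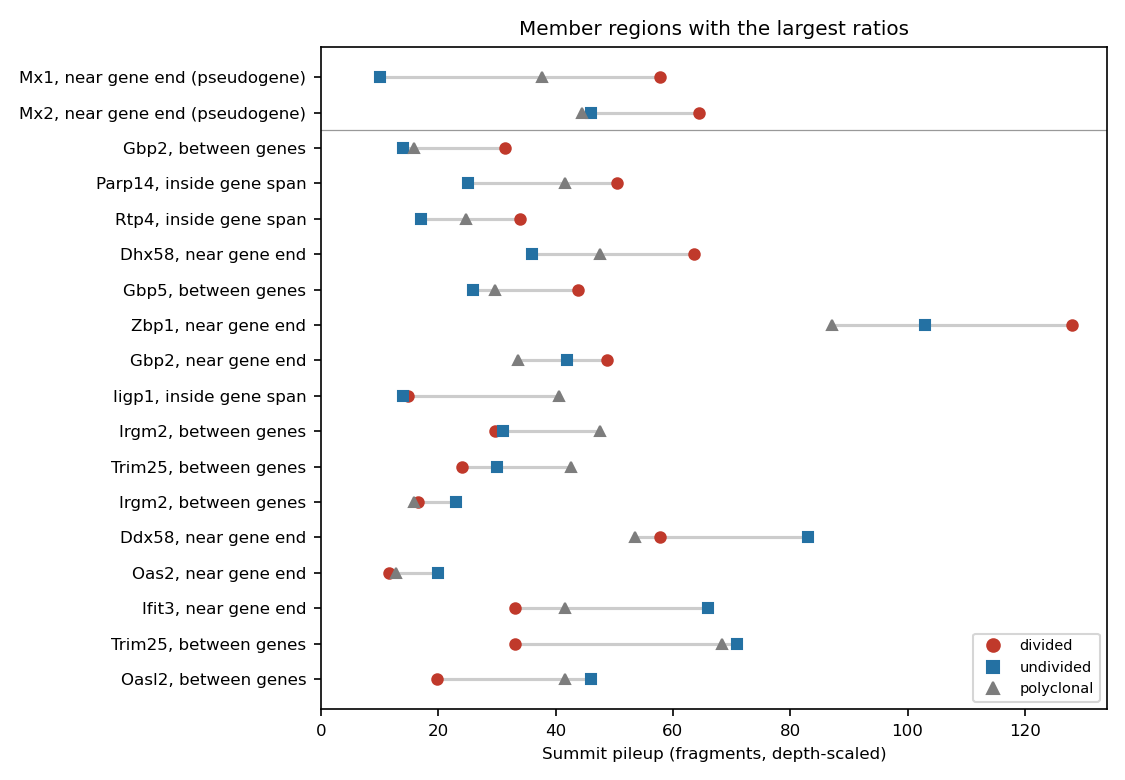
Depth-scaled summit pileup (x axis, fragments) in each library at the regions of the set with the highest and lowest ratios in any comparison, with the 2 Mx regions above the line. Circles, squares and triangles are the divided, undivided and polyclonal libraries, and Mx1 shows the widest spacing between divided and undivided cells relative to its height.

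Ubiquitin-like and ADP-ribose genes encode Isg15 and its protease Usp18, the ubiquitin ligases Trim25, Trim21 and Dtx3l, and the ADP-ribose enzymes Parp9 and Parp14. Isg15, the modifier itself, had a peak in polyclonal cells only (chr4:156200752-156200915). Its pileup was 44 fragments over a local background of 13.1, with a −log10 q-value of 8.98. Absence from a list gives no signal value, so no ratio can be formed. The Dtx3l and Parp9 genes share a promoter region (chr16:35938528-35940139) with 152, 142 and 114 fragments in divided, undivided and polyclonal cells. Parp14 had 97, 75 and 68 at its gene end, Trim25 100, 80 and 98, and Trim21 89, 93 and 96. The depth-scaled divided to undivided ratio was 0.888 at the shared region, 1.07 at Parp14, 1.04 at Trim25 and 0.794 at Trim21.

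Several regions of this group lay away from gene ends. Inside Parp14 (chr16:35869137-35869513) the pileup was 61 in divided cells, 25 in undivided cells and 42 in polyclonal cells, a divided to undivided ratio of 2.02 (1.25 to 3.36), or 1.63 background-scaled. The undivided to polyclonal ratio there was 0.602 (0.352 to 1.01). A region 3801 bp from Trim25 (chr11:89024095-89024518) was lowest in divided cells, at 40, 71 and 69 fragments. Its ratios were 0.467 (0.309 to 0.698) for divided over undivided and 0.487 (0.322 to 0.73) for divided over polyclonal. A nearby Trim25 region had 29, 30 and 43, with a divided to polyclonal ratio of 0.567 (0.341 to 0.929). Usp18 also restrains the type I interferon receptor. At its gene end it had 118, 104 and 91 fragments, a divided to undivided ratio of 0.941. A region 3567 bp away from it (chr6:121241911-121242339) was called in both CBir1 fractions, at 51 and 32 fragments, and not in polyclonal cells. Inside Usp18 a weaker peak of 14 in undivided and 11 in polyclonal cells was not called in divided cells.

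The remaining effectors had peaks at their gene ends in all 3 libraries, apart from Ifi44 and Rtp4. Rsad2 encodes viperin, which makes a chain-terminating nucleotide, and had 84, 97 and 83 fragments in divided, undivided and polyclonal cells. Its neighbour Cmpk2, a nucleotide kinase, had 72, 72 and 70. Isg20, an exonuclease, had 118, 103 and 106 at its taller region, and Samhd1, which breaks down deoxynucleotides, had 72, 54 and 61. Bst2 encodes tetherin, which holds budding virus at the cell surface, and had 99, 61 and 87, so that undivided cells were lowest. Xaf1, a factor linked to cell death, had 57, 50 and 41. The depth-scaled divided to undivided ratio was 0.718 (0.53 to 0.972) at Rsad2, 0.829 at Cmpk2, 0.95 at the taller Isg20 region and 0.945 at Xaf1. It was 1.11 at Samhd1 and 1.35 at Bst2. Rtp4 had no peak near the ends of its annotated span (chr16:23520219-23614222). Also inside the span, a region at chr16:23544182-23545002 had 41, 17 and 25 fragments. Its divided to undivided ratio was 2.0 (1.11 to 3.75), or 1.61 background-scaled, and its undivided to polyclonal ratio 0.688 (0.349 to 1.33). Another inside Rtp4 had 20 fragments in polyclonal cells only, and one outside it had 10 in divided cells only. A region near Samhd1 had 28 fragments in each CBir1 fraction and no polyclonal peak. One near Isg20 had 11 in divided and 14 in polyclonal cells and no undivided peak.

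Divided cells held more regions that undivided cells lacked than the reverse, at a share below that of all regions. A region was counted for one library against another when its peak had a −log10 q-value of at least 5 and the other list had no peak there. Of 90 regions called in either CBir1 fraction, 9 were counted for divided cells (10.0%), against 13.4% of all regions. For undivided cells 2 were counted (2.22%), against 5.34%. At regions near gene ends 3 of 36 were counted for divided cells (8.33%), against 4.87%, and none for undivided cells, against 1.59%. The 3 were Dhx58, Gbp7 and Oas1a.

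The divided to undivided pileup ratios centred on no difference. Near gene ends the median log2 ratio was 0.00 over 32 regions, against 0.03 over all such regions. Elsewhere it was 0.10 over 38 regions, against -0.01. With background scaling the medians of the set were -0.31 and -0.22, and those of all regions -0.28 and -0.33. Ratios of at least 2-fold were found at 3 of 70 regions toward divided cells, against 4.28% of all regions. These were the outlying Gbp2 region and the Parp14 and Rtp4 regions inside their genes. Toward undivided cells there were 2, near Oasl2 and Trim25, against 3.44%.

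Divided and polyclonal cells likewise differed at a few regions only. Of 93 regions, 7 were counted for divided cells against polyclonal cells (7.53%), against 10.4% of all regions, and 6 for polyclonal cells (6.45%), against 5.32%. Near gene ends 2 of 38 were counted for divided cells, Oas3 and Dhx58, against 3.7%, and 1 for polyclonal cells, Isg15, against 1.46%. The median log2 ratio was 0.10 over 33 regions near gene ends, against -0.02 over all such regions. With background scaling it was -0.13, against -0.25. Elsewhere it was -0.03 over 35 regions, against 0.04. No region of 68 reached 2-fold toward divided cells, against 3.59% of all regions, the nearest being the outlying Gbp2 region, whose 2.0 is rounded up. The 3 that reached it toward polyclonal cells lay at Iigp1, Oasl2 and Trim25, against 2.22%.

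Between undivided and polyclonal cells the counts depended on the peak threshold. Of 91 regions, 10 were counted for polyclonal cells (11.0%), against 7.87% of all regions, and 4 for undivided cells (4.40%), against 5.3%. At the authors' threshold the counts were 14 and 13. Near gene ends 3 of 36 were counted for polyclonal cells, at Isg15, Oas1a and Gbp7, against 2.63%, and none for undivided cells, against 1.82%. The median log2 ratio of undivided to polyclonal was 0.10 over 31 regions near gene ends, against -0.06, and -0.13 over 33 elsewhere, against 0.02. No region of 64 reached 2-fold toward undivided cells, against 1.38% of all regions, and 3 reached it toward polyclonal cells, against 1.7%. Of these, 2 lay inside Iigp1 and 1 near Gbp5, where the pileups were 7 and 18. The 3 comparisons share libraries, so their values are not independent.

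**Figure D5:**
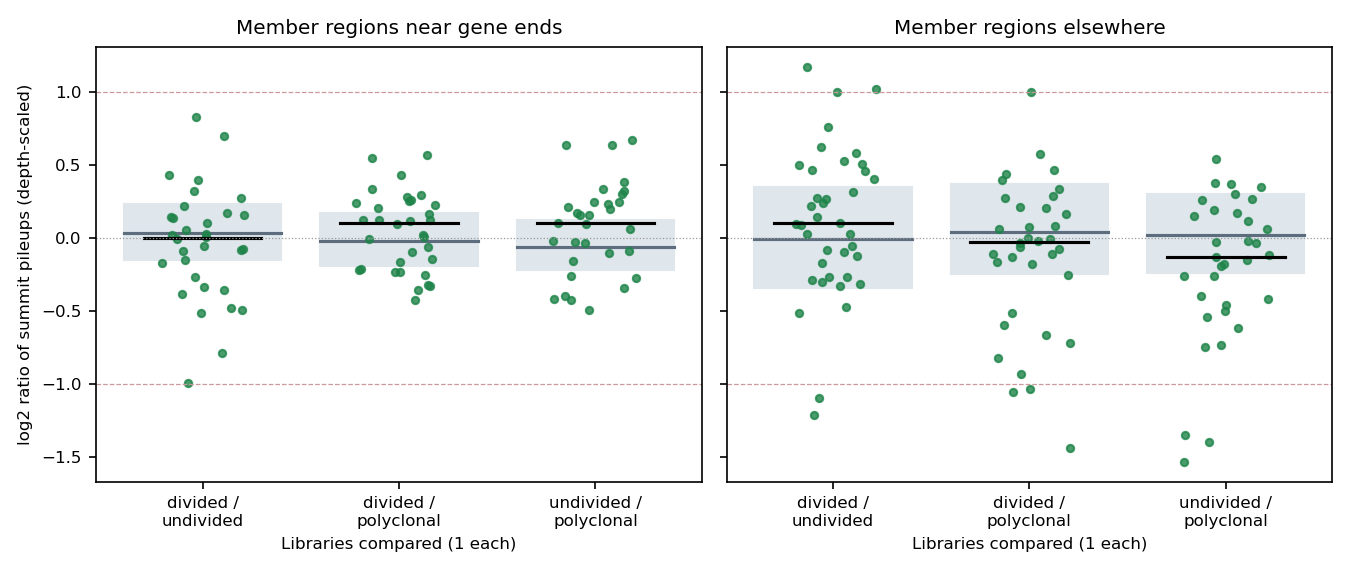
Depth-scaled log2 ratio of summit pileups (y axis) for each region of the set called in both libraries (points), near gene ends and elsewhere, in the 3 comparisons of 1 library each (x axis). Black lines are the medians of the set, which stay between -0.13 and 0.10, and the blue-grey line and box are the median and the middle of the distribution over all regions.

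Medians at promoters with and without an ISRE core were close to each other, with a wider range where a core was present. Over the regions of the set that hold a promoter window, the median log2 ratio of divided to undivided was -0.03 for 16 regions with a core and -0.03 for 8 without. For divided over polyclonal it was 0.01 and 0.06, and for undivided over polyclonal 0.10 (15 regions) and 0.02. The ratios with a core ranged from -0.99 to 0.69 between the CBir1 fractions, and those without from -0.27 to 0.16. More regions had a core, and a lowest to highest range tends to widen with their number. The wider range therefore does not show a difference that goes with the core.

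Genes of the interferon pathway outside the set were read in the same way, from a list of 62 genes. They had 350 regions, of which 207 were called in all 3 libraries (59.1%, beside 56.9% of all regions). All 6 receptor genes and all 3 kinase genes had a peak near a gene end in every fraction, and of 36 other induced genes 31, 30 and 30 had one in divided, undivided and polyclonal cells. Over all protein-coding genes the share with one was 55.6%, 54.0% and 54.7%. Irf8, a transcription factor of the IRF family, had 123, 69 and 83 fragments at its gene end. Of 328 regions called in either CBir1 fraction, 42 were counted for divided cells (12.8%) and 13 for undivided cells (3.96%), beside 13.4% and 5.34% of all regions. The gene of interferon gamma, Ifng, held 9 of the 42, and without it the share was 10.6%. Ifngr1, which encodes the ligand-binding chain of its receptor, held 3 of the 13, and none of its regions was counted for divided cells. Jak2 held 3 regions counted for divided against undivided cells and 4 for polyclonal against undivided cells.

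Markers of other cells that respond to interferon were checked, because the set is used by many cell types. All 8 T cell markers had a peak near a gene end in each list. Of the 4 B cell markers Ms4a1, Cd79a, Cd79b and Pax5, only Cd79a had one, in every list. Of 4 plasmacytoid dendritic cell markers 1 was called in divided cells and 2 in each other fraction, never Siglech or Spib. Of 5 myeloid markers 1, 2 and 2 were called, never Lyz2, Csf1r or Adgre1. None of 3 natural killer markers had a gene-end peak, though 6 of the 7 regions assigned to them were called in each list. Of 2 CD8 T cell markers Cd8b1 and not Cd8a had a gene-end peak in each list, and of 2 epithelial markers Epcam and not Krt8. A gene-end peak was present for 55.6%, 54.0% and 54.7% of all protein-coding genes in divided, undivided and polyclonal cells. Counts of a few markers near those shares do not tell whether such cells were present. Summed pileups over all regions of a list in divided, undivided and polyclonal cells were 198, 95 and 125 fragments for those B cell markers (3, 1 and 3 regions called) and 33, 89 and 131 for CD8 T cell markers (1, 5 and 7 regions). They were 476, 520 and 486 for plasmacytoid dendritic cell and 186, 128 and 194 for myeloid markers. For natural killer markers they were 492, 460 and 450, for epithelial markers 116, 108 and 102 and for T cell markers 3858, 3067 and 3110. These sums are not depth-scaled. Unscaled sums of the B cell, natural killer, epithelial and T cell markers were highest in divided cells, the deeper library. The CD8 and plasmacytoid dendritic cell sums were lowest there. The depth-scaled median log2 ratio of divided to undivided was -0.21 for natural killer (6 regions called in both) and -0.48 for epithelial markers (4). It was -0.02 for T cell (41) and -0.24 for those B cell markers (1). Divided over polyclonal gave -0.17 (5), -0.35 (4), 0.01 (42) and 1.4 (3) in that order. A higher unscaled sum was thus not always a higher depth-scaled ratio. The part of such cells in the differences at single genes was not tested.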

How the data were processed

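ATAC-seq peaks were analysed for 1 library per fraction. Per the submitters' processing notes, bcl2fastq 2.17, cutadapt 1.12, Trimmomatic 0.33, Bowtie2 2.3.2, Picard, SAMtools and MACS2 2.1.0 were used with mouse build mm10. The sources used here do not state whether reads were shifted for the transposase. The deposited values are peak positions and summit offsets, a score, the fold over local background as a ratio, and −log10 p- and q-values. The divided list had 47963 peaks, the undivided 41876 and the polyclonal 44426, with −log10 q-values from 1.31, 1.30 and 1.30 upwards. The sources used here do not state read totals. Pileups were recovered as whole numbers within a tolerance of 0.001 for 99.996%, 99.995% and 99.993% of peaks, by a routine tested on simulated data, and the highest summit of each merged region was used. RefSeq genes (GRCm38.p6, 21887 protein-coding) were assigned within 100 kb, and a region equally near several genes counted for each of them. Named were all regions counted for 1 library against another and, per comparison, the 4 highest and 4 lowest ratios with a pileup of at least 20 in either library. Members and lists were chosen with earlier results of these data known. Some items read from these lists are not reported here. Alternatives changed thresholds, distances, merging, scaling and motif mismatches. Python 3.11.15, pandas 2.3.3 and SciPy 1.17.1 were used.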

Additional observations from a re-analysis of the deposited data

How the results depend on the processing

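Of 100 values recomputed under the alternatives, 86 kept within their spread or within 1.5 times the count, and 14 moved. Counting any peak at the authors' threshold gave 7 regions for undivided against divided cells, 15 for divided and 10 for polyclonal cells between those libraries, and 13 for undivided against polyclonal cells, beside 14 the other way. A −log10 q-value of at least 10 left 3 for divided and 1 for undivided cells between the CBir1 fractions, 3 for divided and 0 for polyclonal cells, and 0 for undivided and 1 for polyclonal cells. By construction the first admits weaker peaks and the second fewer. Scaling by the lowest background gave median log2 ratios of -0.31 near gene ends and -0.22 elsewhere for divided over undivided, and -0.26 elsewhere for divided over polyclonal. Over all regions of the same kinds these were -0.28, -0.33 and -0.19. With 1 mismatch in the ISRE core the share of genes was 92.9%, against 38.9% of all genes. No paired analysis was possible because each group is 1 library, and for the same reason no replicate could be left out. Depth limits faint peaks: a called peak had at least 6 fragments in divided cells and 5 in each other fraction.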
